A study of Drosophila melanogaster with 8 samples.

Results

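The chemosensory receptors of Drosophila fall into odorant receptors (Or), gustatory receptors (Gr) and ionotropic receptors (Ir), and their transcripts were read here in sorted neurons of the fly brain. Every probe set (a group of short probes summarized as 1 signal) was included if its only gene symbol was Or, Gr or Ir followed directly by digits and a letter. This rule used names and no measured values. It gave 185 of the 18769 probe sets that were not array controls: 62 Or probe sets for 56 genes, 63 Gr probe sets for 56 genes and 60 Ir probe sets for 53 genes, 165 genes in all. A further 5 probe sets with several symbols, at least 1 of them a receptor, were left out. Orco, the shared odorant co-receptor, has a symbol without digits and was therefore read beside the members rather than among them. No member was filtered on its signal, so all 185 were tested.

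Odorant receptors are ligand-gated cation channels of olfactory neurons in the antenna and maxillary palp, where a tuned receptor pairs with Orco. Gustatory receptors detect sugars, bitter compounds and, in the antenna, carbon dioxide, mostly in taste neurons of the proboscis, legs and wings. Ionotropic receptors are relatives of ionotropic glutamate receptors that sense acids, amines, humidity, temperature and tastants, in most cases together with broadly used co-receptors. Kenyon neurons, the intrinsic cells of the mushroom body (MB), lie centrally to these organs and receive odor information through projection neurons.

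The samples were RNA from GFP-positive cells purified by FACS from the brains of flies of both sexes and hybridized to Affymetrix Drosophila arrays. Flies carried UAS-mCD8-GFP with the OK-107 GAL4 driver (control), or in addition UAS-dTip60E431Q, a dominant negative form of the histone acetyltransferase Tip60 without HAT activity. After eclosion both genotypes spent 5 days either in groups of 30 flies at an equal sex ratio (environmental enrichment, EE) or alone (isolation, ISO). Each of the 4 groups had 2 arrays, and the age was 5 days except for dTip60E431Q ISO replicate 2, labelled 6 days. The driver is also active in the pars intercerebralis, the suboesophageal ganglion and the optic lobes, so the sorted cells need not all be Kenyon neurons. No source used here says whether replicate arrays represent different pools of flies. The p-values therefore cover the variation between the arrays at hand, part or all of which could be technical.

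The values were log2 signals, with array medians between 6.41 and 6.50. Tip60, which checks the genotype labels, read 8.41 and 8.07 in control ISO, 8.18 and 8.09 in control EE, 9.64 and 9.64 in dTip60E431Q ISO, and 9.88 and 10.14 in dTip60E431Q EE. All 19 probe sets for Kenyon neuron markers and all 9 for general neuron markers had a mean above the median of all probe sets. So did 7 of 8 for glia, 6 of 6 for photoreceptors, 9 of 11 for fat body and 7 of 9 for hemocytes. These are markers of cells outside the label. For midgut, also outside the label, 4 of 11 did. Replicates of dTip60E431Q ISO were closer to each other than those of any other group, with an SD of the differences of 0.183 against 0.358 to 0.479 over all probe sets. Over the receptors the gap was small, 0.277 against 0.298 to 0.364.

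Receptor transcripts read low. The median of the 185 member means was 3.27 on the log2 scale (quartiles 2.74 and 4.32), against 6.46 for all probe sets. Only 8 members, 4.32%, had a mean over the 8 arrays above that median of all probe sets, and 177 lay below it. The 8 divided into 3 Or, 2 Gr and 3 Ir probe sets, so the share was 4.84%, 3.17% and 5.0% in the 3 families. Array by array, 8 or 9 members exceeded the array's own median. The family medians of the means were 3.43 for Or, 3.20 for Gr and 3.25 for Ir. The files hold no detection call, so a low signal was not shown to lie above the background of the array. Signals of different probe sets are not on 1 scale either, and the position relative to the median is a description. Just below the median stood Gr47a at 6.45, followed by a Gr39a probe set at 5.89 and Ir48c at 5.87, while Ir68a at 6.69 was just above it.

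**Figure D1:**
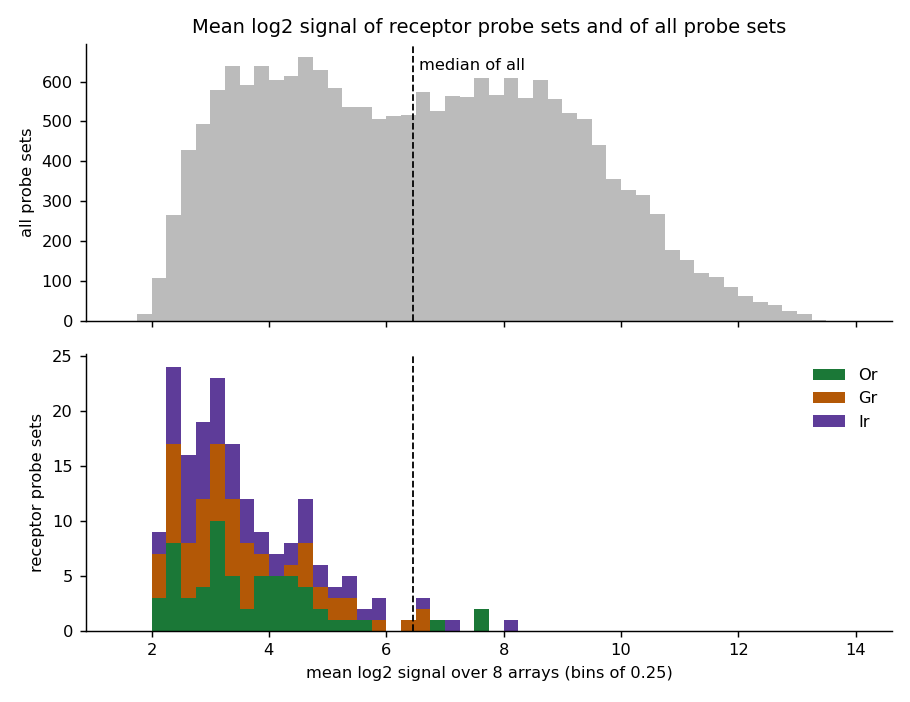
Number of probe sets (vertical axis) by mean log2 signal over 8 arrays (horizontal axis, bins of 0.25) for all 18769 probe sets (top) and for the 185 receptor probe sets, stacked by family (bottom). The dashed line is the median of all probe sets, 6.46. The receptors pile up below 5 and only 8 lie to the right of the line.

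Among the genes of the 8 probe sets above the median, Ir76a is an antennal receptor that senses amines. Its probe set 1633880_s_at read 7.68 and 7.74 in control ISO and 7.72 and 8.17 in control EE. It read 8.35 and 8.19 in dTip60E431Q ISO and 8.73 and 8.46 in dTip60E431Q EE, so that all 4 dTip60E431Q arrays lay above all 4 control arrays. The 3 odorant receptors were Or43b, a receptor of adult antennal neurons tuned to fruit esters, and Or45a and Or63a, which are known from larval olfactory neurons. Or43b stayed between 7.60 and 7.99 over the 8 arrays and its groups overlapped. Or45a ranged from 6.68 to 7.40 and Or63a from 7.32 to 7.86, again with overlapping groups. Gr39a, which acts in bitter-sensing neurons and in male courtship, was represented by 5 probe sets. Of these, 1631508_a_at (6.64 to 6.87) and 1639617_at (6.62 to 6.91) were above the median, whereas the other 3 had means of 4.72, 4.85 and 5.89. The remaining members above the median were Ir56a (6.89 to 7.45), a receptor of taste neurons, and Ir68a (6.55 to 6.98), which is needed for sensing moist air.

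In the RefSeq annotation of Drosophila (Release 6), the gene bodies of 6 of these 8 probe sets (75%) overlapped another protein-coding gene. The same held for 35 of the 177 members below the median (19.8%). Or43b overlapped Cul1, a scaffold of ubiquitin ligases with a mean signal of 9.66, and Ir56a overlapped the serotonin receptor 5-HT1A, with 9.71. Gr39a overlapped Mondo, a sugar-responsive transcription factor with 9.29, and Ir76a overlapped CG14102, with 7.21. Or45a overlapped CG13954 and CG13739, whose means of 6.03 and 5.50 lay below the median of all probe sets. Or63a and Ir68a overlapped no other coding gene. Neither the strand nor the position of the probes was available here, so whether a probe set also reads the neighbour was not tested.

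**Figure D2:**
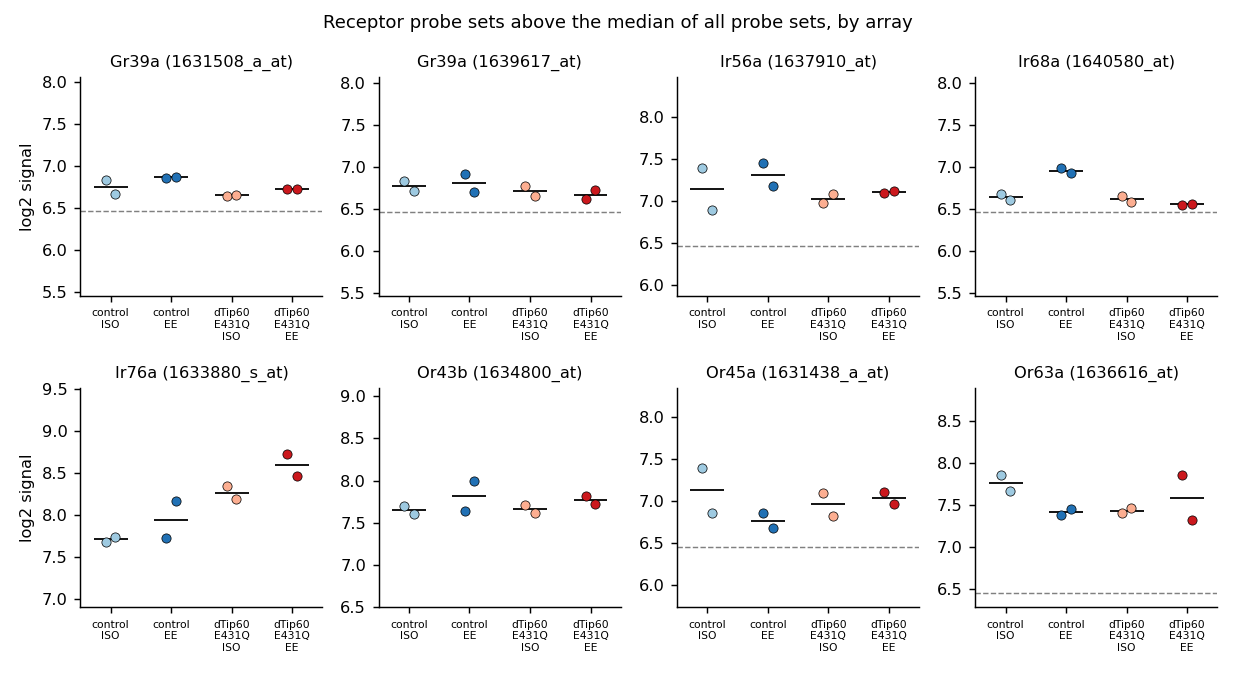
Log2 signal on each array (points, 2 per group) and group mean (bars) for the 8 receptor probe sets with a mean above the median of all probe sets (dashed line at 6.46, drawn where a panel reaches that low). Every panel spans 2.6 log2 units. Ir76a is the panel in which the 4 dTip60E431Q arrays lie above the 4 control arrays.

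The co-receptors, without which many tuned receptors do not reach the cilium, all had means below the median. Orco read 5.36 and 6.45 in control ISO, 5.16 and 6.30 in control EE, 5.46 and 5.39 in dTip60E431Q ISO, and 6.02 and 6.85 in dTip60E431Q EE. Replicates of Orco thus differed by more than 1 log2 unit in both control groups. Ir25a, the most widely used ionotropic co-receptor, ranged from 4.73 to 5.82, and Ir76b, a co-receptor for amines and tastants, from 4.13 to 4.99. Ir8a, which serves acid-sensing receptors, stayed between 3.80 and 4.18. The 2 probe sets of Ir93a, which works in temperature and humidity sensing, had means of 2.78 and 5.80. Probe sets of 1 gene can thus read far apart.

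Gr21a and Gr63a, which together form the carbon dioxide receptor, ranged from 3.32 to 3.92 and from 3.26 to 4.54. The 5 sugar receptors read here (Gr5a, Gr43a, Gr61a, Gr64a and Gr64f) were also all below the median, with means from 3.14 to 5.10. Gr43a, the fructose receptor that is also found in a few brain neurons, read between 4.91 and 5.29 on all arrays. Among 14 probe sets for 9 genes of bitter-sensing neurons, only the 2 of Gr39a were above the median. Gr66a, a receptor for caffeine and other bitter compounds, ranged from 4.90 to 5.85. Gr32a, which senses bitter compounds and a cuticular pheromone, ranged from 4.37 to 4.84. The 8 pheromone or courtship receptors had means from 2.83 to 5.42, including Or67d for cis-vaccenyl acetate (2.83 to 4.21) and Or47b, which promotes male courtship (3.53 to 4.72). Of the 25 probe sets for the IR20a clade of taste receptors, Ir56a alone was above the median. The larval odorant receptors had 2 of 12 above it, Or45a and Or63a.

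After adjustment over all 18769 probe sets, the comparisons called a receptor once. A call required a Benjamini-Hochberg adjusted p below 0.05 in limma and a fold of at least 1.3. EE against ISO called 0 members in control flies, where 0.0906% of all probe sets were called, and 0 in dTip60E431Q flies, where 0.448% were. dTip60E431Q against control called 1 member, which was lower, in ISO (0.799% of all probe sets, 0.181% lower) and 0 in EE (0.181%). Averaged over both housings the genotype comparison called 0 (0.538%), and the interaction of genotype and housing called 0 (0.671%). At an unadjusted p below 0.05 with the same fold, the 6 comparisons held 7, 15, 15, 16, 8 and 15 members in the same order. The shares of all probe sets past it were 4.41%, 6.15%, 10.1%, 5.09%, 4.32% and 10.2%. For members that were not called, the differences below are descriptions.

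The called member was Or46a, an odorant receptor of the maxillary palp. Its probe set 1630070_at read 3.65 and 3.55 in control ISO, 3.20 and 3.01 in control EE, 2.72 and 2.88 in dTip60E431Q ISO, and 2.88 and 2.99 in dTip60E431Q EE. The ISO groups did not overlap, and both control ISO arrays were above the other 6. In ISO it fell by 0.80 on the log2 scale from control to dTip60E431Q (SE 0.12, limma adjusted p = 0.0447), a fold of 1.74. In EE the genotype difference was -0.17 (SE 0.12), and the interaction of 0.63 (SE 0.17) was not called (adjusted p = 0.260). Neither of the other probe sets of the gene was called. Probe set 1634517_at read 4.84 and 4.56 in control ISO against 3.85 and 4.38 in dTip60E431Q ISO, without overlap but with a wider spread. Probe set 1641695_a_at read 2.60 and 3.14 against 2.89 and 2.47, and its groups overlapped. The call was lost when the closely similar dTip60E431Q ISO arrays were counted as 1 sample (adjusted p = 0.345) and when any 1 array other than control ISO replicate 2 was left out, and its adjusted p ranged from 0.0328 to 0.521 over the alternatives. In sorted bulk RNA, fewer cells of a type and less RNA per cell cannot be told apart.

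Transcripts of other tissues differed between the same groups. Of 11 midgut marker probe sets, 4 were called higher in dTip60E431Q ISO than in control ISO, and the log2 of their summed signal was 8.67 and 10.46 in control ISO against 13.45 and 13.39. Of 11 fat body marker probe sets, 3 were called higher, with 14.34 and 14.48 against 15.45 and 15.45. Their part in the Or46a difference was not tested.

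In control flies, the members past the unadjusted threshold were mostly lower in EE than in ISO, with 6 lower and 1 higher. Among all probe sets the shares were 2.03% lower and 2.38% higher, so 6 of 185 (3.24%) was above and 1 of 185 (0.541%) below the background. For probe sets below the median signal, where most members lie, the shares were 3.08% lower and 1.53% higher. The split was 2 lower and 2 higher after cyclic loess, 11 and 7 without control ISO replicate 2, and 5 and 9 without control EE replicate 1, so this direction did not hold. The 6 were Or46a, Or33c, a palp receptor, Or22c, a larval receptor, Or67c, an antennal receptor, Or98b and Gr36a. Or67c had the largest difference of the 6 and read 3.79 and 3.27 in ISO against 2.52 and 3.21 in EE. These groups did not overlap, but EE replicate 2 was close to ISO replicate 2 (difference -0.66, SE 0.27, limma adjusted p = 0.838). The member that was higher was Gr64a, a subunit of sugar receptors, which read 2.91 and 2.86 in ISO and 3.43 and 3.15 in EE.

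In dTip60E431Q flies the members past this threshold were mostly higher in EE, 13 against 2 that were lower. The shares of all probe sets were 2.69% higher and 3.47% lower, and among those below the median signal 3.26% and 3.66%, beside 7.03% and 1.08% of the members. Without dTip60E431Q ISO replicate 1 the split was 6 higher and 5 lower, and without dTip60E431Q EE replicate 2 it was 10 and 0. The 13 comprised 6 odorant, 5 gustatory and 2 ionotropic receptor probe sets. They represented Or22a, Or35a (2 probe sets), Or42a, Or42b, Or67a, Gr28a, Gr32a, Gr64a, Gr66a, Gr93a, Ir75a and Ir75b, and the 2 lower were Gr39b and Ir94b. The 2 probe sets of Gr93a disagreed, with differences of -0.03 and 0.48.

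Or42b, an antennal receptor for fruit odors at low concentration, read 3.93 and 3.80 in dTip60E431Q ISO and 4.59 and 5.31 in dTip60E431Q EE. In control flies it read 4.36 and 4.64 in ISO and 3.97 and 4.15 in EE, so the order of the housings was opposite. The difference in dTip60E431Q was 1.08 (SE 0.23, 95% interval 0.53 to 1.64, limma adjusted p = 0.221). In control it was -0.44 (SE 0.23), and the interaction was 1.52 (SE 0.33, adjusted p = 0.162). Without dTip60E431Q EE replicate 1 the difference became 1.44 (adjusted p = 0.0495) and the interaction 1.88 (adjusted p = 0.0423), so that both were called.

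Or42a, a receptor for esters in palp and larval neurons, showed the same order with closer replicates. It read 3.69 and 3.67 in dTip60E431Q ISO and 4.27 and 4.35 in EE, beside 4.31 and 4.56 in control ISO and 3.97 and 4.32 in control EE. dTip60E431Q ISO lay below every other array, and the interaction was 0.93 (SE 0.21, limma adjusted p = 0.184).

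Or35a is a broadly tuned receptor of coeloconic sensilla in the antenna. Probe set 1631444_a_at read 2.60 and 2.47 in dTip60E431Q ISO and 3.56 and 3.65 in EE, against 3.05 and 3.57 in control ISO and 2.51 and 3.23 in control EE. The dTip60E431Q housings were separated by 1.07 (SE 0.26, limma adjusted p = 0.279), while those of control overlapped. With only the dTip60E431Q arrays in the fit this difference was called (adjusted p = 0.0222). Probe set 1623275_at read 3.05 and 3.04 in dTip60E431Q ISO and 3.75 and 3.98 in EE, whereas the third probe set of Or35a, 1633555_at, ranged only from 4.50 to 4.85 over the 8 arrays.

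Among the taste receptors, Gr66a read 4.90 and 5.06 in dTip60E431Q ISO and 5.46 and 5.60 in EE, without overlap, and 5.27 and 5.54 against 5.51 and 5.85 in control. Its differences were 0.55 in dTip60E431Q and 0.27 in control (SE 0.16 each), and the interaction of 0.28 did not pass even the unadjusted threshold. Gr64a was higher in EE by nearly the same amount in both genotypes, 0.40 in control and 0.45 in dTip60E431Q (SE 0.12 each, limma adjusted p = 0.662 and 0.360), with no overlap between housings in either.

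**Figure D3:**
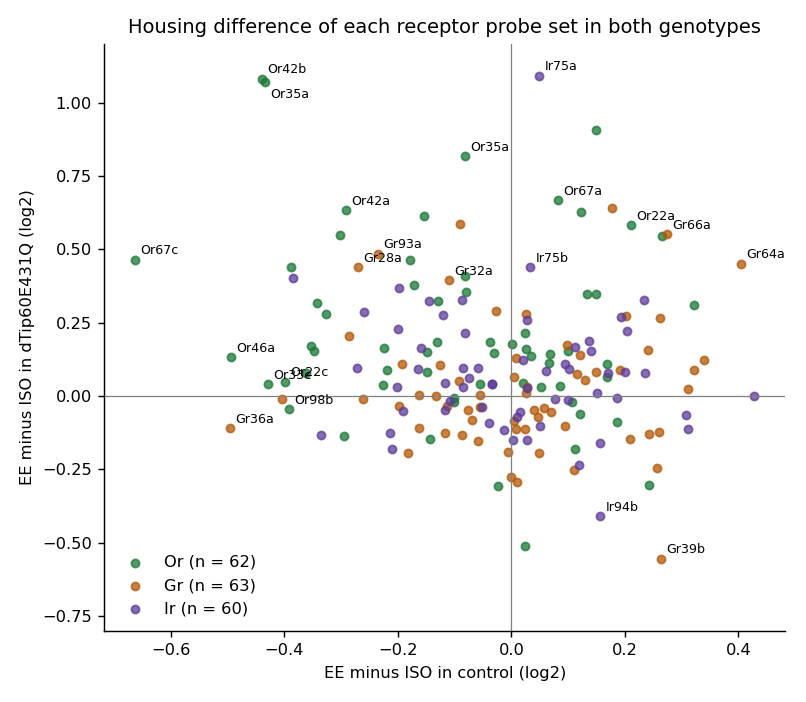
EE minus ISO difference (log2) of each receptor probe set in control (horizontal axis) and in dTip60E431Q (vertical axis), coloured by family. Labels mark probe sets with an unadjusted p below 0.05 and a fold of at least 1.3 in either genotype. Or42b, Or35a and Or42a lie at the upper left, negative in control and positive in dTip60E431Q, and Gr64a lies at the right with both positive.

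The Or family as a whole had more members higher in EE in dTip60E431Q than in control. In control, 26 of 62 Or probe sets were higher in EE, with a median difference of -0.08 beside -0.02 for all probe sets and -0.06 for those below the median signal, so the control side was close to its background. In dTip60E431Q, 50 of 62 were higher, with a median of 0.15 beside 0.01 for both backgrounds. The interaction was above 0 in 49 of 62, with a median of 0.27 beside 0.03 for all probe sets and 0.07 for those below the median signal. The control median was 0.02 without control EE replicate 1. In dTip60E431Q the median was 0.09 without EE replicate 2 and 0.22 without ISO replicate 2. The Gr family had medians of 0.01 in control and 0.00 in dTip60E431Q, and the Ir family of 0.01 and 0.05. Markers of other tissues moved in the same comparisons. In dTip60E431Q, 11 of 11 midgut marker probe sets were lower in EE (median -2.33, 3 called) and 10 of 11 fat body marker probe sets were lower (median -1.36, 3 called). In the interaction, 3 midgut and 6 fat body marker probe sets were called lower. Other lists moved the same way as the Or family. In dTip60E431Q, 11 of 11 antennal support cell (median 0.56) and 16 of 19 Kenyon neuron marker probe sets (median 0.09) were higher in EE. In the interaction, 9 of 9 general neuron (median 0.16) and 14 of 19 Kenyon neuron marker probe sets (median 0.12) were above 0. Support cell markers were above 0 there in 5 of 11. The part of these lists in the receptor differences was not tested.

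The genotype comparison within ISO held 10 lower (5.41%) and 5 higher (2.7%) members past the unadjusted threshold. The shares of all probe sets were 4.9% lower and 5.24% higher, and among those below the median signal 5.56% and 4.65%. The lower count was thus near its background and the higher count below it. The 5 higher were 2 Gr and 3 Ir probe sets. Besides Or46a, the lower ones were Or22c, Or35a, Or42a, Or42b, Or67c, Gr47b, Gr61a, Gr66a and Gr93a. The comparison uses the same dTip60E431Q ISO arrays as the housing comparison, so Or35a, Or42a, Or42b, Gr66a and Gr93a stand in both lists through shared arrays. Bitter receptors leaned lower in dTip60E431Q ISO, with 13 of 14 probe sets below 0 and a median of -0.20 beside 0.00 for all probe sets, 0 of them called. These 14 include 5 probe sets of Gr39a, all below 0, and Kenyon neuron markers lay the same way, with 15 of 19 below 0 and a median of -0.15. Without control ISO replicate 2 the comparison held 26 members, 16 lower and 10 higher, and without dTip60E431Q ISO replicate 1 it held 21, 9 lower and 12 higher.

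Within EE the genotype comparison held 13 higher and 3 lower members, beside 2.43% and 2.66% of all probe sets and 3.51% and 2.04% of those below the median signal. The 13 were Or35a, Or42b, Or43a, Or59b, Or67b, Or71a, Or83c, both probe sets of Ir21a, Ir41a, Ir75a, Ir75b and Ir76a, and the 3 were Or1a, Gr47b and Ir68a. The 3 probe sets of Ir41a disagreed, with differences from -0.12 to 0.39. After a repeated quantile normalization 7 higher and 3 lower were past the threshold, and after cyclic loess 7 and 4. The interaction had 13 members above 0 and 2 below past the threshold, beside 5% and 5.19% of all probe sets and 6.5% and 4.34% of those below the median signal, and 12 and 4 after cyclic loess. Of the 13, 8 were odorant receptors.

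The genotypes did not overlap, 4 arrays against 4, in 13 members, 7 higher and 6 lower in dTip60E431Q. These counts were near the background, since the corresponding shares of all probe sets were 3.12% and 2.2%. All 7 higher probe sets were ionotropic receptors, 11.7% of the 60 Ir probe sets. The 7 higher probe sets (3.78% of members) were Ir21a (2 probe sets), Ir41a, Ir60d, Ir68b, Ir75b and Ir76a. The 6 lower ones (3.24%) were Or1a, Or24a, Or46a, Gr33a, Gr39a and Gr47b. For Ir41a and Or46a the 3 probe sets of the gene did not all lie the same way. Their averaged differences ran from -0.09 to 0.38 for Ir41a and from -0.485 to 0.035 for Or46a. Because the 13 were picked for this separation, the exact two-sided permutation p of each is 0.0286 by construction, the smallest that 4 arrays against 4 allow. It adds no support, and 5.31% of all probe sets separate in the same way. None of the 13 was called in the comparison averaged over housing. Antennal support cell markers lay above 0 in the same comparison in 8 of 11 probe sets (median 0.79, 0 called). So did midgut markers in 11 of 11 (median 2.12, 3 called) and photoreceptor markers in 6 of 6 (median 0.70, 0 called). Kenyon neuron markers lay above 0 in 5 of 19 (median -0.08). The part of these cell types in the Ir differences was not tested.

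Ir21a mediates cool sensing in the arista of the antenna and was higher in dTip60E431Q with both of its probe sets. Probe set 1626140_at read 3.33 and 3.92 in control ISO and 3.81 and 4.29 in control EE, against 4.66 and 4.64 in dTip60E431Q ISO and 4.68 and 4.62 in dTip60E431Q EE. The dTip60E431Q values all lay above the control values and close together, whereas the control values were spread widely. The averaged difference was 0.81 (SE 0.16, limma adjusted p = 0.129), and without control ISO replicate 2 it was 0.96 and was called (adjusted p = 0.0271). Probe set 1631795_at read 4.05 and 4.52, then 4.22 and 4.28 in the control groups, and 4.61 and 5.01, then 4.88 and 4.83 in the dTip60E431Q groups. Its averaged difference was 0.56 (SE 0.14, adjusted p = 0.230).

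Ir75a and Ir75b are paralogous receptors of coeloconic neurons for short-chain acids. Ir75a read 3.36 and 4.09 in control ISO, 3.25 and 4.29 in control EE, 4.23 and 3.997 in dTip60E431Q ISO, and 4.94 and 5.47 in dTip60E431Q EE. The dTip60E431Q EE arrays were the highest, and in control replicate 2 was well above replicate 1 in both housings. In EE the genotype difference of Ir75a was 1.43 (SE 0.39, limma adjusted p = 0.416).

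Ir75b read 2.87 and 3.14 in control ISO, 3.13 and 2.95 in control EE, 3.32 and 3.28 in dTip60E431Q ISO, and 3.62 and 3.85 in dTip60E431Q EE. Its difference in EE was 0.70 (SE 0.14, limma adjusted p = 0.241). For Ir76a, whose values are given above, the averaged difference was 0.60 (SE 0.12, adjusted p = 0.145). The 60 Ir probe sets had a median averaged difference of 0.01, the same as all probe sets.

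On the lower side, Gr47b read 5.10 and 4.75 in control ISO, 5.59 and 4.93 in control EE, 4.51 and 4.04 in dTip60E431Q ISO, and 4.28 and 4.52 in dTip60E431Q EE (averaged difference -0.75, SE 0.19, limma adjusted p = 0.243). Or1a, a larval receptor, read 4.84 and 5.11, 4.89 and 5.54, 4.83 and 4.68, and 4.51 and 4.39 in the same order. For Or1a the lowest control array was only just above the highest dTip60E431Q array (4.84 against 4.83). The same held for Or46a (3.01 against 2.99) and Or24a (2.73 against 2.72). It also held for Gr33a (2.426 against 2.420) and the separating Gr39a probe set, 1627976_at (4.69 against 4.68). Ir68a was the single member above the median signal that passed the unadjusted threshold on the lower side. Ir68a read 6.98 and 6.92 in control EE and 6.55 and 6.55 in dTip60E431Q EE, without overlap (difference -0.40, SE 0.10, adjusted p = 0.368).

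**Figure D4:**
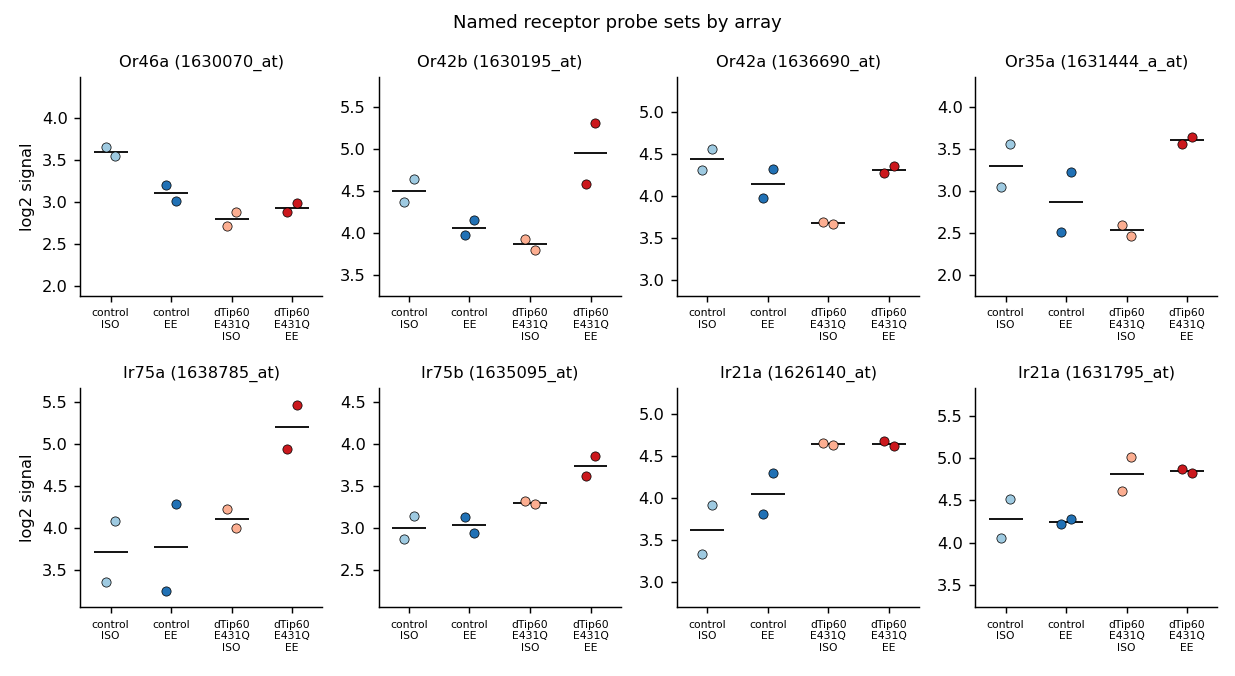
Log2 signal on each array (points, 2 per group) and group mean (bars) for 8 receptor probe sets described in the text, each panel spanning 2.6 log2 units. Or46a is highest in control ISO, Or42b, Or42a and Or35a are lower in dTip60E431Q ISO than in dTip60E431Q EE, and the Ir21a probe sets are higher on all 4 dTip60E431Q arrays than on the control arrays.

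Several receptors of the antenna varied between replicates of 1 group, and so did transcripts of antennal support cells, though not together in every group. These cells surround olfactory neurons and secrete odorant-binding proteins. Their 11 marker probe sets, 9 of them above the median signal, deviated from their own means by an average of -1.54 and 0.54 in control ISO and -0.74 and 0.79 in control EE. The average was -0.07 and -0.09 in dTip60E431Q ISO and 0.19 and 0.93 in dTip60E431Q EE. Among them lush, which binds cis-vaccenyl acetate, read 4.92 on control ISO replicate 1 and 8.49 on replicate 2. In control EE lush read 5.88 and 8.76, in dTip60E431Q ISO 8.26 and 8.12, and in dTip60E431Q EE 8.35 and 9.35. The log2 of the summed signal of the markers was 13.42 and 14.26, 13.59 and 14.41, 13.38 and 13.35, and 13.72 and 14.36 in the 4 groups, and none of the markers was called in any comparison.

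The 48 probe sets of 42 adult odorant receptors deviated by -0.04 and 0.11 in control ISO, -0.20 and 0.08 in control EE, -0.17 and -0.10 in dTip60E431Q ISO, and 0.05 and 0.27 in dTip60E431Q EE. By this mean deviation dTip60E431Q EE replicate 2 was highest for the adult receptors, for Orco and for the support cell markers, whereas by summed signal control EE replicate 2 was highest for the markers. In control EE, replicate 2 was above replicate 1 in 39 of 48 adult Or probe sets and in 10 of 11 support cell markers. In control ISO this held for 23 of 48 and 11 of 11, in dTip60E431Q EE for 35 of 48 and 10 of 11, and in dTip60E431Q ISO for 27 of 48 and 3 of 11. Over all probe sets the share was 48.2% in control EE, 36.3% in control ISO, 34.7% in dTip60E431Q EE and 50.9% in dTip60E431Q ISO. The 17 antennal Ir probe sets deviated by -0.27 and 0.02 in control ISO, -0.17 and 0.08 in control EE, 0.01 and -0.02 in dTip60E431Q ISO, and 0.14 and 0.20 in dTip60E431Q EE. Replicate 2 was above replicate 1 in 13 and 12 of these 17 in the control groups and in 5 of 17 in each dTip60E431Q group. A list of 12 larval odorant receptor probe sets had a mean deviation between -0.07 and 0.07 over the 8 arrays, although single members such as Or1a varied more. It does not hold every receptor of larval neurons, since Or42a stands on the adult list only, as do Or42b and Or35a. The adult list was made after values were seen, so the contrast between the lists depends in part on how they were cut. The part of antennal RNA in the differences of the odorant and ionotropic receptors was not tested.

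**Figure D5:**
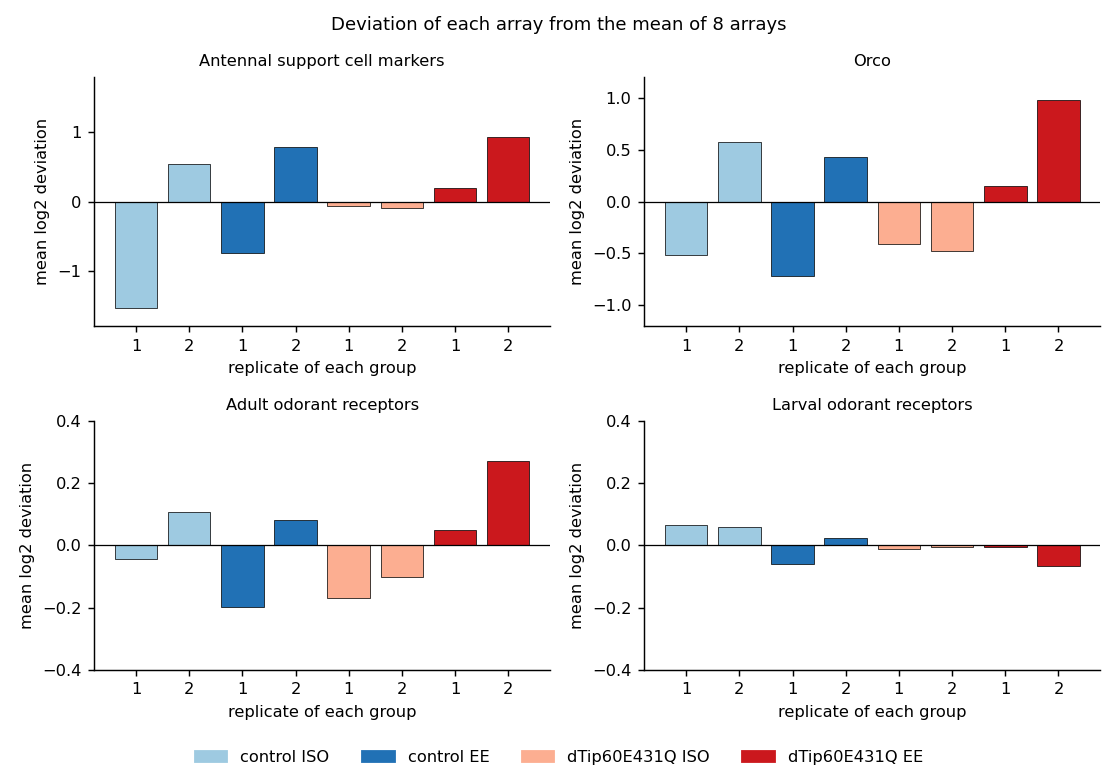
Mean deviation (log2) of each array from the mean of 8 arrays for 11 antennal support cell marker probe sets, Orco, 48 adult odorant receptor probe sets and 12 larval odorant receptor probe sets, with arrays ordered by group and replicate. The vertical scales differ between panels (1.8, 1.2, 0.4 and 0.4 on either side of 0). The bars of the support cell markers, Orco and the adult receptors are highest on dTip60E431Q EE replicate 2, and the mean of the larval receptors stays within 0.07 of 0. Or42a, which is also known from larval neurons, is on the adult list, which was made after values were seen.

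Genes that work with the receptors were more often above the median signal. Of 24 probe sets for 21 binding proteins, membrane proteins, channels and G proteins with a part in chemosensation, 15 were above the median signal and 0 were called in any of the 6 comparisons. Among the 15 are binding proteins, which support cells secrete, and all probe sets of the G proteins Galphai, Galphao, Galphaq and Galphas. The count is therefore not a reading of chemosensory neurons alone. The 24 include Orco and 5 of the antennal support cell markers (Obp19d, Obp28a, Obp69a, Obp83b and lush). In dTip60E431Q, 18 of 24 were higher in EE, with a median difference of 0.37 beside 0.01 for all probe sets. Snmp1, a membrane protein needed for pheromone detection, read 6.58 and 6.63 in dTip60E431Q ISO and 6.98 and 7.86 in EE, and 6.69 and 7.16 against 6.49 and 7.29 in control, where housings overlapped. Of 14 probe sets for 9 transcription factors listed for olfactory neuron development or receptor choice, 11 were above the median signal. Among them were acj6 (7.99 to 8.76) and pdm3. These factors also act in central neurons. The 10 probe sets for proteins of sensory cilia had 2 above the median, Rfx, a regulator of ciliary genes (9.16 to 9.52), and Oseg6 (6.95 to 7.22). The transport proteins Oseg1, Oseg2, Oseg4 and Oseg5 and the ciliary motor btv were below it.

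For 12 receptor genes with more than 1 probe set, 32 in all, the probe sets of a gene could be set against each other. They had the same sign in 8 genes for EE against ISO in control and in 5 for dTip60E431Q. They had the same sign in 7 genes for the genotype in ISO, in 8 in EE and in 6 for the interaction. The median SD within groups was 0.17 for members and 0.15 for all probe sets.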

How the data were processed

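Per the labels, the authors isolated RNA from sorted neurons with an RNeasy Plus micro kit, labelled it with the Affymetrix 3' IVT Express kit, and summarised the arrays with RMA. The deposited values are log2 signals, used as they are. The sources used here give no version of RMA. Of 18952 probe sets, 183 array controls were set aside. Symbols came from the platform annotation, in which 13647 probe sets had 1 symbol, 402 several and 4720 none, and 0 symbols changed against RefSeq (Release 6).

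R 4.3.3 with limma 3.58.1 fitted a mean per group over all 18769 probe sets (4 residual and 2.91 prior degrees of freedom), with Benjamini-Hochberg adjustment over all of them. The steps were tested on simulated data. The members, the gene lists and the rule for naming genes were chosen with earlier results of these data known, and the adult Or list after values were seen. Named were members above the median, those with the smallest p per comparison, those of the role lists and those with the largest moderated F. The number of arrays, 2 a group, limits the precision. Alternatives covered normalization, filters, weights, moderation, probe set choice, replicates and the methods' t-test.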

Additional observations from a re-analysis of the deposited data

How the results depend on the processing

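The direction of the recomputed differences of Or1a, Or35a, Or42a, Or42b, Or46a, Or67c, Gr47b, Ir21a, Ir68a, Ir75a, Ir75b and Ir76a was the same under every alternative run for them. Only renormalization and leaving out arrays could have changed it, because the other alternatives kept the same group means. The Or family median in control ranged from -0.17 to 0.02. Or46a in ISO was called under cyclic loess, a repeated quantile normalization, robust moderation with a mean-variance trend, a fold of 1.1 and without control ISO replicate 2, and under no other alternative. The number of called members in that comparison was 0 with only the compared arrays, array weights, a replicate block, probe sets below the median left out, 1 probe set per gene, the dTip60E431Q ISO pair averaged, both control replicate 1 arrays left out (chosen after seeing the data), and the methods' t-test with adjustment. With single arrays left out it was 0 to 2. In dTip60E431Q, EE against ISO gave 1 called member with only the compared arrays. Leaving out both control replicate 1 arrays is the same fit for this comparison, since the dTip60E431Q arrays alone then set the spread. The interaction and the averaged genotype comparison gave 0 to 1, and the remaining comparisons 0. With 1 probe set per gene, 1634517_at stands for Or46a.

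At the unadjusted threshold the counts were 7 (control), 15 (dTip60E431Q), 15 (genotype in ISO), 16 (genotype in EE), 15 (interaction) and 8 (averaged genotype). The methods' t-test gave 2, 6, 4 and 4 in the first 4 of these and 7 in the averaged one. Without probe sets below the median, which leaves few members, the counts were 0, 0, 1, 2, 0 and 1. With single arrays left out they spanned 6 to 18, 10 to 20, 11 to 26, 12 to 19, 12 to 24 and 8 to 14. Cyclic loess gave 4 in control and a repeated quantile normalization 3, and the latter gave 10 for the genotype in EE. Averaging the dTip60E431Q ISO pair gave 8 in dTip60E431Q and 7 for the genotype in ISO. Without both control replicate 1 arrays the counts were 25 for the genotype in ISO and 23 for the averaged genotype, and a fold of 1.1 gave 20 for the latter. For counts that moved, the cause was not tested unless fewer probe sets or arrays entered.

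Correlations of the deviations of same-numbered replicates ranged from -0.09 to 0.31 over 6 pairs of groups. They were above 0.1 for control ISO with control EE and with dTip60E431Q EE but not for the other 4 pairs, so the numbers were not taken to pair the arrays. With the replicate block the interaction had 23 members past the unadjusted threshold and 0 members were called. With the median taken over probe sets with 1 symbol, 4 members in place of 8 were above it, and 8 to 9 with single arrays left out. Genotypes did not overlap in 11 members after cyclic loess, against 13. With 2 arrays a group and low signals, small differences are not detectable.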
